A study of Mus musculus with 8 samples.

Results

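HY209, the bile salt sodium taurodeoxycholate, was given to mice 30 min into an endotoxin inflammation, and the comparison described here sets Gr1+ spleen cells of those mice against the same cells after endotoxin alone. It compares 6 of the 8 arrays of the series, 3 with HY209 after lipopolysaccharide (LPS) and 3 with LPS alone. The 2 PBS arrays are given beside them as the level without endotoxin. They also entered the fit, where they add to the estimate of the spread behind the p-values and intervals. Arrays were taken by their group labels and genes by a background threshold, and 10311 of the 16593 genes on the arrays passed that threshold and were tested.

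All mice were female C57BL/6 animals of 6 to 8 weeks. In the HY209 group, LPS was injected into the peritoneum and HY209 was injected intravenously 30 min later. The LPS group received LPS without HY209 and the PBS group received neither, and PBS was injected in place of an agent that was left out. Doses are not given in the labels, and no sample analysed here received HY209 without LPS, so its effect outside inflammation is not measured. Spleens were taken 48 h after the first injection. Gr1+ cells were isolated with magnetic beads, and more than 95% of them carried CD11b. Cells were pooled, from 10 to 15 spleens per group with 3 repeats by the extraction text and from 30 to 40 spleens by the design text. The p-values below therefore measure the spread between pooled samples, not between single mice, and if pools were shared between arrays that spread is in part technical. Because RNA came from a bulk fraction, fewer cells of a type and less RNA per cell cannot be told apart for any gene below.

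Gr1 is an epitope shared by Ly6G on neutrophils and Ly6C on inflammatory monocytes, and Gr1+CD11b+ spleen cells expand during sepsis and can suppress T cells. Taurodeoxycholate is a secondary bile salt. It is an agonist of the cell surface bile acid receptor GPCR19, also named TGR5, which is encoded by Gpbar1. This receptor couples to the stimulatory G protein and raises cyclic AMP, a second messenger that restrains inflammatory cytokine production in macrophages and neutrophils.

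The fraction had the transcripts of neutrophils on all 8 arrays, and the neutrophil markers did not separate HY209 from LPS. Of 8 defining neutrophil genes, 7 had a probe, and 0 passed the test in limma, with 0 at an unadjusted p under 0.05. They had summed intensities of 163938 to 172423 on the HY209 arrays, 166982 to 173006 on the LPS arrays and 148095 to 150919 on the PBS arrays. Ly6g has no annotated probe here. Itgam, the CD11b chain, was at 2263, 3129 and 2359 with HY209, against 2246, 3063 and 2526 with LPS and 506 and 565 with PBS. Other cell types also left transcripts in this fraction, and their sums moved with HY209. They are given beside the gene groups they touch, and their part in those results was not tested.

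HY209 moved 971 genes past an adjusted p of 0.05 (limma, moderated test across all genes with Benjamini-Hochberg adjustment), 9.42% of the 10311 tested. Of these, 621 (6.02%) were higher and 350 (3.39%) were lower than with LPS alone, and the median log2 change over all genes was -0.01. Most changes were small. At least 2-fold changes were reached by 19 of the higher genes (0.184%) and 5 of the lower ones (0.0485%). A further measure asks which genes were held in place. The 95% interval of the log2 change, unadjusted, lay within 0.5 either way for 8455 genes (82.0%), and these are called left in place below. The number passing depended on single arrays, with 391 genes without HY209 array 1 and 1117 without HY209 array 2, while all of the 25 largest rises and the 25 largest falls passed in each of the 8 fits that left out 1 array. In all that follows, intensities are the deposited values, ± after a log2 change is its standard error, and log2 changes are computed after background correction, so they are larger than the ratio of the printed intensities for dim genes. A gene counts as above background at an intensity over 168.

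**Figure D1:**
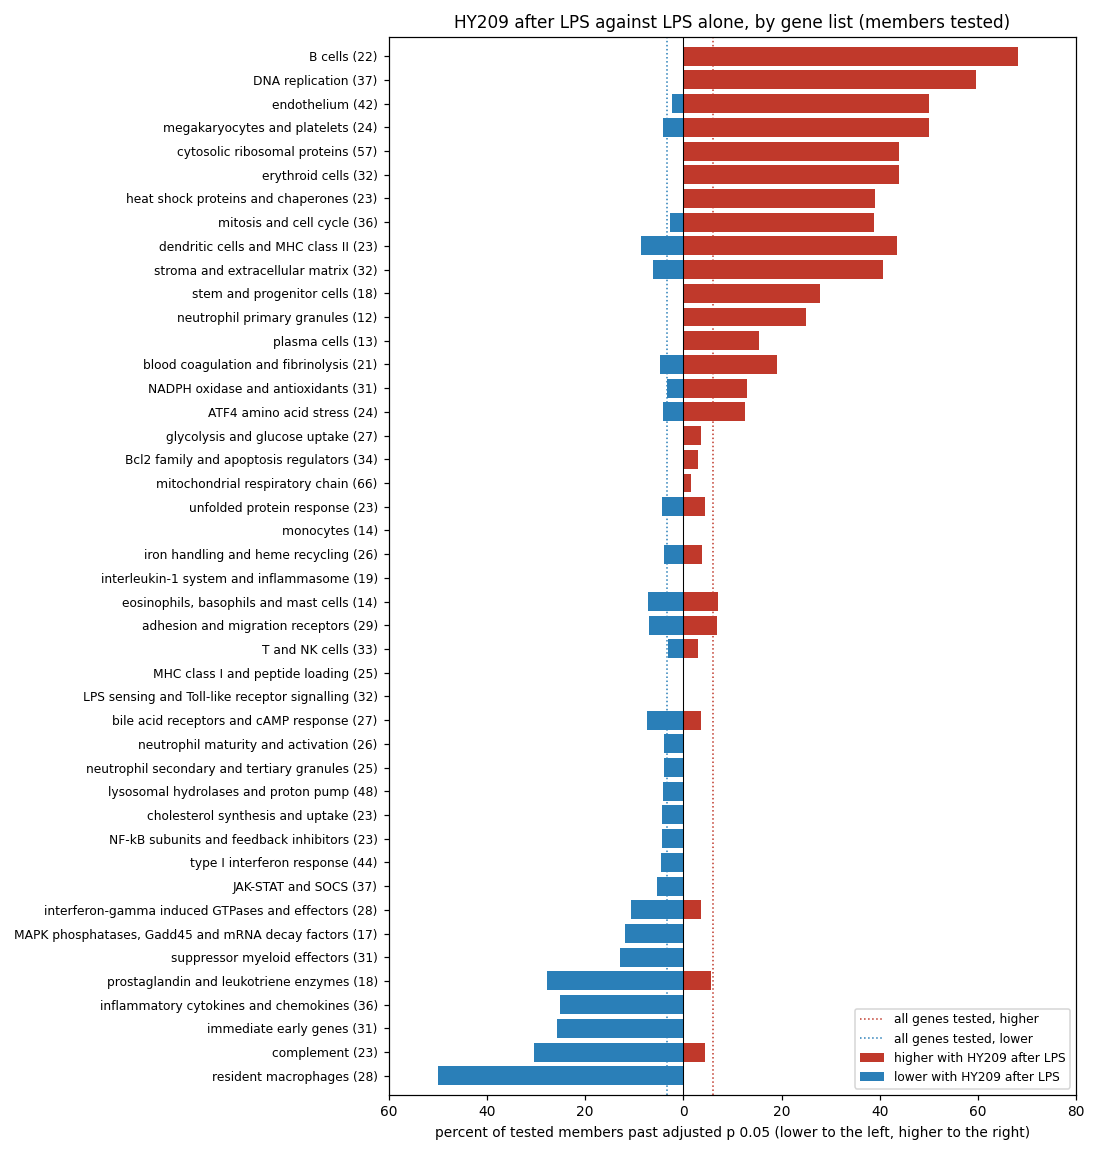
For each of 44 gene lists, the percent of tested members higher (red, to the right) or lower (blue, to the left) with HY209 after LPS than with LPS alone at an adjusted p under 0.05. Dotted lines mark the same percent over all 10311 genes, 6.02% higher and 3.39% lower, and the number of tested members follows each name. B cell and DNA replication genes have the longest bars to the right and resident macrophage genes the longest to the left.

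The largest falls included those of immediate early genes, which cells switch on within minutes of a stimulus without new protein synthesis and which encode AP-1 and related transcription factors and fast mRNA decay proteins. Of 31 tested members, 8 fell, 0 rose and 19 were left in place, with a median log2 change of -0.14. The background share of lower genes is 3.39%, against 25.8% in this list. Fos, an AP-1 subunit (probe ILMN_2750515), was at 2268, 2730 and 2394 with HY209, against 9990, 10406 and 10530 with LPS and 6039 and 5923 with PBS. The HY209 arrays were the lowest of all 8 for Fos, below the arrays of mice that received no endotoxin, and the log2 change against LPS was -2.10 ± 0.09 (adjusted p = 3.6e-07). Ier2, a short-lived nuclear protein of the same response (probe ILMN_2642705), was at 247, 225 and 264 with HY209, against 731, 692 and 791 with LPS and 321 and 288 with PBS. Its log2 change was -1.92 ± 0.10 (adjusted p = 2.9e-06), and again every HY209 array lay below every other array. Egr1, a zinc finger transcription factor (probe ILMN_2662926), was at 2904, 2787 and 2704 with HY209, against 6619, 7428 and 7041 with LPS and 2970 and 2755 with PBS, a change of -1.35 ± 0.08 (adjusted p = 6.2e-06). For Egr1 the HY209 arrays overlapped the PBS arrays.

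The other members that fell did so by less. Zfp36, which encodes tristetraprolin and speeds the decay of cytokine mRNAs, was at 24215, 22817 and 26640 with HY209, against 38280, 36650 and 36650 with LPS and 26941 on both PBS arrays (-0.60 ± 0.08, adjusted p = 0.0017). The AP-1 subunits Junb and Jun changed by -0.48 ± 0.10 and -0.46 ± 0.09, and Ier3, a regulator of cell survival, by -0.43 ± 0.08. Fosb was not well above background on any HY209 array and at least 1.08-fold lower there. Among the 8, the calls of Fos, Ier2, Egr1, Zfp36 and Ier3 held in each fit that left out 1 array, and 7 of the 31 passed without HY209 array 1, without LPS array 1 and without LPS array 3. The remaining members did not pass. Of all 31 members, 14 were at an unadjusted p under 0.05 in limma, against 25.7% of all genes. Every HY209 array lay below every LPS array for 15 of the 31, against 14.6% of all genes. Dusp1, a MAP kinase phosphatase, was at 32003, 31132 and 32126 with HY209, against 37879, 37463 and 36027 with LPS and 26008 and 28524 with PBS (-0.23 ± 0.08, adjusted p = 0.097), and Klf2, Klf6 and Mcl1 had log2 differences of -0.11 ± 0.08, -0.07 ± 0.08 and 0.01 ± 0.08.

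Bases upstream of the start site are shown for the members that fell and hold either of a pair of elements through which cyclic AMP and serum factors act on immediate early genes, the cyclic AMP response element and the CArG box. The 250 bases are from RefSeq on GRCm38.p6 in the direction of the gene, and promoters were searched for 6 of the 8 members. Those of Ier2 and Egr1, which had some of the largest falls, were not searched, and the counts below leave them out. Capitals mark the core letters TGACG of the cyclic AMP response element (found on either strand, so also as CGTCA) in Fos at chr12:85473640-85473889, plus strand, in Fosb at chr7:19310046-19310295, minus strand, and in Junb at chr8:84978749-84978998, minus strand, and the CArG box in Zfp36 at chr7:28379229-28379478, minus strand.
Fos: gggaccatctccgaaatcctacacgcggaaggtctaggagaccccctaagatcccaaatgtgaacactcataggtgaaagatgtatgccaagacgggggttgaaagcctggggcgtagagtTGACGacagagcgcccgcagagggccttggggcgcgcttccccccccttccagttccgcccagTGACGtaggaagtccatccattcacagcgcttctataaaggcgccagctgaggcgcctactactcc
Fosb: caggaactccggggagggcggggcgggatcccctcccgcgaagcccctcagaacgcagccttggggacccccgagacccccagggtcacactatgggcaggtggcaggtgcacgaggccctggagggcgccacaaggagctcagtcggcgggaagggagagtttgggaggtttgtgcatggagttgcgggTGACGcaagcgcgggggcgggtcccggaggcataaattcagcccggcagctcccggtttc
Junb: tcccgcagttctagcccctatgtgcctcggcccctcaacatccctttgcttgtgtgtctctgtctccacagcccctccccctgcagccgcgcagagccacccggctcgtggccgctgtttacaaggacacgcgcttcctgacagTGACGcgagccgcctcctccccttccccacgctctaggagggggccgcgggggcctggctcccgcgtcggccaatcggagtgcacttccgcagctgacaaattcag
Zfp36: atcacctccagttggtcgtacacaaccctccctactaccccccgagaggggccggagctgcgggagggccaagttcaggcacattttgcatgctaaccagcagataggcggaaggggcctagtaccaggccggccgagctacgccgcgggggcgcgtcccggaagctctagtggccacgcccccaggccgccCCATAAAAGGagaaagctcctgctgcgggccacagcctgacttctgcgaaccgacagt
The TGACG core begins at positions -129 and -66 of Fos, -60 of Fosb and -106 of Junb, counted from the start site, and the CArG box begins at -58 of Zfp36. TGACG was held by 3 of 6 members that fell and by 12 of 18 other tested members of the list with a promoter, against 19.8% of the 27025 genes whose promoters were searched. A CArG box was held by 1 of 6 and 2 of 18, against 1.62% of those genes. These are matches of letters in a window and no measure of binding.

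**Figure D2:**
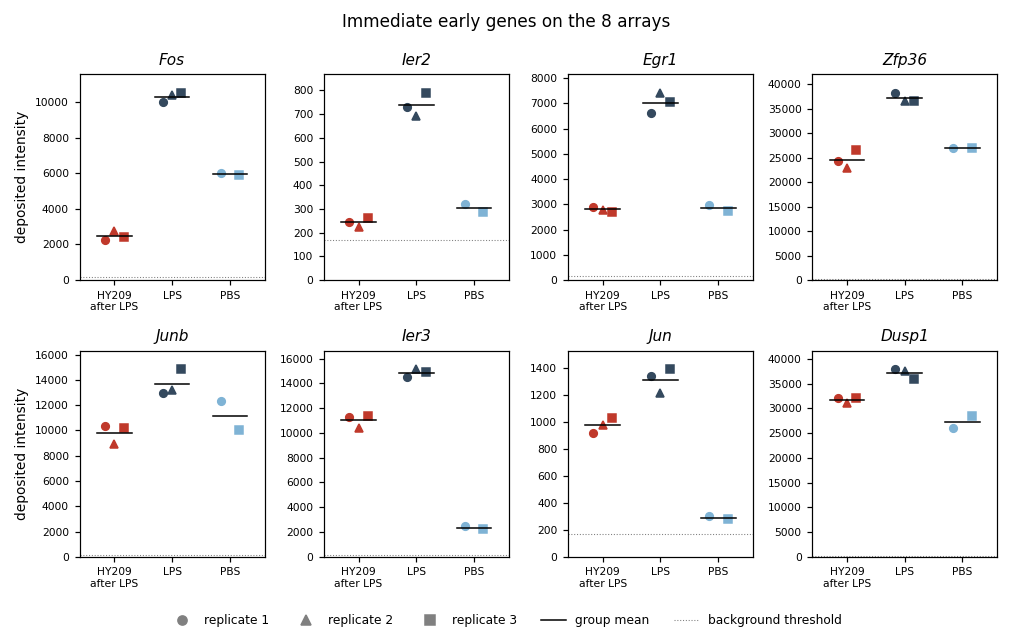
Deposited intensity of 8 immediate early genes on each array, with a linear axis from 0, in the order HY209 after LPS, LPS and PBS. Circles, triangles and squares are replicates 1, 2 and 3, black lines are group means and the dotted line is the background threshold. Fos and Ier2 are lowest on the 3 HY209 arrays, while the HY209 arrays of Dusp1 lie between LPS and PBS.

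Feedback regulators of the same kinase cascade come next. In the list of MAP kinase phosphatases, Gadd45 proteins and mRNA decay factors, 2 of 17 tested members fell, Zfp36 and the stress sensor Gadd45g (11.8%, against 3.39% of all genes), and 15 were left in place (88.2%, against 82.0% of all genes). Gadd45g was at 6733, 6729 and 7439 with HY209, against 9217, 8732 and 9365 with LPS and 2679 and 3003 with PBS (-0.39 ± 0.09, adjusted p = 0.016), and its adjusted p rose over the threshold, to 0.065 at most, when HY209 array 1, LPS array 1 or LPS array 3 was left out.

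Some inflammatory cytokines and chemokines fell and others did not. Of 36 tested members, 9 fell (25%, against 3.39% of all genes), 0 rose and 19 were left in place, with a median log2 change of -0.21. Cxcl9, a chemokine induced by interferon-gamma that draws T cells (probe ILMN_1215862), was at 9714, 10166 and 9803 with HY209, against 16694, 16189 and 16643 with LPS and 1739 and 1899 with PBS. It changed by -0.74 ± 0.08 (adjusted p = 0.00034), and its HY209 arrays stayed far above PBS. Ccl3, a chemokine of macrophages and neutrophils, was at 7064, 6279 and 5674 with HY209, against 9475, 10114 and 8992 with LPS and 322 and 312 with PBS (-0.60 ± 0.10, adjusted p = 0.0040). Osm, which encodes the interleukin-6 family cytokine oncostatin M, was at 5349, 3695 and 4372 with HY209, against 6454, 6739 and 6756 with LPS and 3143 and 3011 with PBS (-0.60 ± 0.12, adjusted p = 0.011). The T cell chemokine Ccl5 was at 6524, 7434 and 6753 with HY209, against 9867, 9540 and 10227 with LPS and 8318 and 9119 with PBS (-0.52 ± 0.09), and here the HY209 arrays were the lowest of all 8. Smaller falls passed for the chemokine Cxcl16 (-0.52 ± 0.10), the lymphocyte growth factor Il15 (-0.50 ± 0.09), the macrophage growth factor Csf1 (-0.40 ± 0.09), the B cell survival factor Tnfsf13b (-0.38 ± 0.08) and the interleukin-12 subunit Il12a (-0.36 ± 0.08). Without HY209 array 1, 6 of the 9 passed, and in the fits that left out any 1 array 6 to 9 passed. The calls of Cxcl9, Ccl3, Osm, Ccl5 and Il15 held in all of these fits.

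The cytokines best known from endotoxin shock were not among the called genes. Tnf was at 3140, 3238 and 2938 with HY209, against 3669, 3764 and 3370 with LPS and 336 on both PBS arrays, a log2 change of -0.22 with a 95% interval of -0.40 to -0.04 (adjusted p = 0.13). Il1b, the pro-form of interleukin-1 beta, was at 39542, 38998 and 35615 with HY209, against 36027, 39542 and 38280 with LPS and 31710 and 34653 with PBS, and its interval ran from -0.18 to 0.19. The groups overlapped for Il1b, whereas all HY209 arrays lay below all LPS arrays for Tnf, as for 14.6% of all genes. Il10, the anti-inflammatory cytokine, was at 2752, 2881 and 3147 with HY209, against 3305, 3449 and 3309 with LPS and 175 and 170 with PBS (-0.20, interval -0.38 to -0.02, adjusted p = 0.15). Saa3, an acute phase apolipoprotein, was at 35199, 34293 and 36027 with HY209, against 31052, 34524 and 34878 with LPS and 432 and 592 with PBS (0.07 ± 0.12). Each of these 4 genes was thus held within 0.5 of LPS on the log2 scale, and far from PBS except for Il1b.

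Single arrays set the spread of some chemokines. Cxcl2, a neutrophil attractant, was at 10488, 5533 and 9298 with HY209, against 10599, 10715 and 10794 with LPS and 207 and 205 with PBS, so HY209 array 2 was the lowest and the difference of -0.40 ± 0.18 did not pass (adjusted p = 0.20). Ccl4, a chemokine like Ccl3, was at 10582, 7142 and 9573 with HY209, against 10566, 10216 and 11334 with LPS (-0.25 ± 0.13, adjusted p = 0.24). For both genes HY209 array 2 was the lowest of the 6 arrays, and HY209 array 1 lay among the LPS arrays or just below them. Il6 was above background only on HY209 array 1, at 176, and was not tested.

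**Figure D3:**
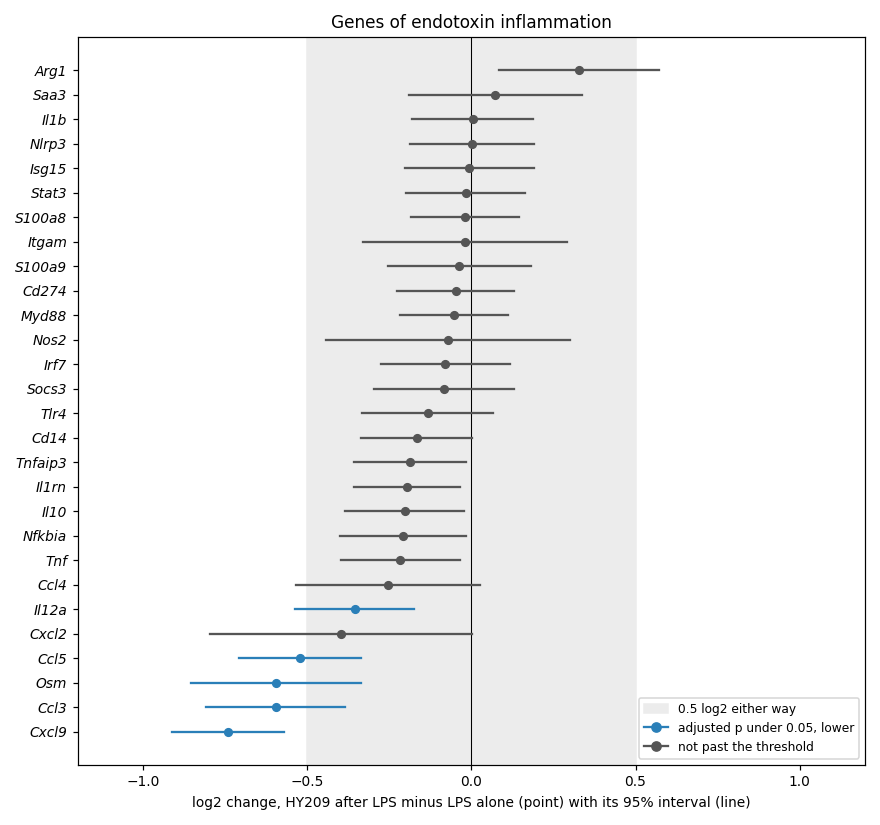
Log2 change of 28 inflammatory, sensing and myeloid genes, HY209 after LPS minus LPS alone (point), with its unadjusted 95% interval (line), and a grey band 0.5 either way. Blue genes (Cxcl9, Ccl3, Osm, Ccl5 and Il12a) fell at an adjusted p under 0.05, and grey genes did not pass. Most of the grey intervals, such as those of Il1b, Saa3, Cd274 and S100a8, lie wholly inside the band.

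Receptors and signalling proteins upstream of these cytokines were mostly left in place. Of 32 tested genes of LPS sensing and Toll-like receptor signalling, 0 passed in limma, 6 of them at an unadjusted p under 0.05, and 30 (93.8%) were left in place, against 82.0% of all genes. Cd14, the LPS coreceptor, was at 27705, 27258 and 29050 with HY209, against 32510, 31052 and 30761 with LPS and 5127 and 4967 with PBS (-0.17 ± 0.08, adjusted p = 0.20). Tlr4, the signalling receptor for LPS, was at 2618, 2365 and 2321 with HY209, against 2493, 2914 and 2594 with LPS (-0.13 ± 0.09), and the adaptor Myd88 differed by -0.05 ± 0.08. The 2 members of smallest adjusted p were Lbp, the LPS binding protein (-0.30 ± 0.09, adjusted p = 0.0555), and Tlr6 (-0.25 ± 0.09, adjusted p = 0.10). Lbp was called lower in limma without background correction (adjusted p = 0.0287) and with probes above background on every array of a group (0.0407). It was also called lower with a trended robust prior (0.0466) and with the replicate number as a block (0.0440). Tlr6 was called lower with a trended robust prior (adjusted p = 0.0463).

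One step further down, among 23 NF-kB subunits and feedback inhibitors, 22 (95.7%, against 82.0% of all genes) were left in place and 1 fell (4.35%, against 3.39% of all genes). This was the inhibitor Nfkbib, at 1153, 1192 and 1204 with HY209, against 1658, 1400 and 1592 with LPS and 308 and 310 with PBS (-0.41 ± 0.09, adjusted p = 0.014, with 0.065 when an array was left out). The inhibitor Nfkbia had a log2 difference of -0.21 ± 0.09 (adjusted p = 0.158) and the ubiquitin editing enzyme Tnfaip3 one of -0.19 ± 0.08. Of 19 genes of the interleukin-1 system and the inflammasome, 0 passed in limma, 5 of them at an unadjusted p under 0.05, and 15 were left in place (78.9%, against 82.0% of all genes). Pycard changed by -0.29 ± 0.12 (adjusted p = 0.146). It was called lower with the replicate number as a block (adjusted p = 0.0495) and without HY209 array 3 (adjusted p = 0.0461). Il1rn, the interleukin-1 receptor antagonist, was at 13482, 13677 and 13591 with HY209, against 15421, 15577 and 15628 with LPS and 2506 and 2542 with PBS (-0.20 ± 0.07, adjusted p = 0.125). Every HY209 array of Il1rn lay below every LPS array, as for 14.6% of all genes. Another probe of Il1rn had -0.50 (adjusted p = 0.0231 in limma over all probes), and the mean of its probes was called lower (-0.35, adjusted p = 0.0236), as was the gene with a trended robust prior (adjusted p = 0.0378). Nlrp3, the inflammasome sensor, was near the background threshold on every array, from 166 to 179 with HY209 and from 168 to 172 with LPS. Its other probe had 0.34 (adjusted p = 0.0542 in limma over all probes) and was called higher (adjusted p = 0.0308) where probes had to be above background on every array of a group.

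Of 44 type I interferon response genes, 39 were left in place (88.6%, against 82.0% of all genes), 0 rose and 2 fell (4.55%, against 3.39% of all genes). The 2 that fell were Isg20, an antiviral exonuclease (-0.50 ± 0.10), and Rtp4 (-0.34 ± 0.10, adjusted p = 0.045, lost in 7 of the 8 fits that left out 1 array). Isg20 was at 2426, 2148 and 1918 with HY209, against 2984, 3195 and 2878 with LPS and 578 and 521 with PBS. Irf7, the master regulator of this response, was at 10243, 9462 and 10675 with HY209, against 10227, 10412 and 11466 with LPS and 2540 and 2269 with PBS, so the groups overlapped (-0.08 ± 0.09). Of 28 genes induced by interferon-gamma, 3 fell (10.7%, against 3.39% of all genes), 1 rose (3.57%, against 6.02%) and 21 were left in place (75%). Besides Cxcl9, the fallen members were Ubd, a ubiquitin-like modifier, at 998, 1166 and 1180 with HY209, against 1753, 1586 and 1711 with LPS and 1632 and 1572 with PBS (-0.63 ± 0.09, adjusted p = 0.0024), and the tryptophan-degrading enzyme Ido1 (-0.49 ± 0.09, adjusted p = 0.0091). The one that rose was Ciita, the transactivator of MHC class II (0.58 ± 0.11). No test compared the responses to the 2 interferons with each other.

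In the list of suppressor myeloid effectors, genes through which Gr1+ cells suppress T cells, 4 of 31 tested members fell (12.9%, against 3.39% of all genes), 0 rose and 23 were left in place (74.2%, against 82.0%). Vegfa, an angiogenic factor, was at 304, 323 and 291 with HY209, against 447, 405 and 435 with LPS and 250 and 235 with PBS (-0.60 ± 0.09, adjusted p = 0.0024). The prostaglandin E synthase Ptges was at 334, 400 and 354 with HY209, against 485, 479 and 490 with LPS and 170 and 159 with PBS (-0.51 ± 0.10, adjusted p = 0.0087). The others were Ido1, described above, and the arginine transporter Slc7a2 (-0.45 ± 0.12, adjusted p = 0.039, lost in 7 of the 8 fits that left out 1 array).

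Arginase stood apart from these. Arg1, which depletes arginine around T cells, was at 2214, 2980 and 2490 with HY209, against 2011, 2059 and 2043 with LPS and 147 and 136 with PBS. Every HY209 array lay above every LPS array, as for 14.5% of all genes, and the difference of 0.33 ± 0.11 did not pass (adjusted p = 0.092, and 0.0445 without background correction). Cd274, the checkpoint ligand PD-L1, was at 17865, 15956 and 17265 with HY209, against 17442, 18243 and 17099 with LPS and 3920 and 4107 with PBS (-0.05 ± 0.08, interval -0.23 to 0.13). Nos2, the inducible nitric oxide synthase, was at 226, 204 and 183 with HY209, against 236, 192 and 205 with LPS, and the groups overlapped. The calprotectin subunits S100a8 and S100a9 had log2 differences of -0.02 ± 0.08 and -0.04 ± 0.10, S100a8 at intensities of 59488 to 62809 with HY209, near the highest value of the arrays (66399), where a rise could not show.

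Of 18 tested enzymes of prostaglandin and leukotriene synthesis, 5 fell (27.8%, against 3.39% of all genes), 1 rose (5.56%, against 6.02%) and 11 were left in place. The prostacyclin synthase Ptgis was at 211, 212 and 221 with HY209, against 309, 273 and 276 with LPS and 2391 and 2217 with PBS (-0.57 ± 0.09, adjusted p = 0.0035). Besides Ptges, falls passed for Ptges2 (-0.42 ± 0.10), the leukotriene C4 synthase Ltc4s (-0.42 ± 0.10) and the thromboxane synthase Tbxas1 (-0.35 ± 0.08), and 2 of the 5 still passed without HY209 array 1, LPS array 1 or LPS array 3. The one that rose, the platelet lipoxygenase Alox12, is given with the platelet genes. Ptgs2, the inducible cyclooxygenase, was at or below background on all 8 arrays.

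Of 28 tested genes of resident macrophages, 14 fell (50%, against 3.39% of all genes), 0 rose and 10 were left in place, and all 28 log2 changes were below 0 (median -0.35). Itgad, an integrin of red pulp macrophages (probe ILMN_1237406), was at 691, 652 and 596 with HY209, against 1164, 1265 and 1167 with LPS and 18670 and 19086 with PBS (-0.97 ± 0.09, adjusted p = 0.00011). Of its other 2 probes, 1 passed in the same direction and 1 had 0.03 (adjusted p = 0.91 in limma over all probes). The mannose receptor Mrc1 was at 970, 975 and 897 with HY209, against 1399, 1610 and 1537 with LPS and 18243 and 19933 with PBS (-0.72 ± 0.09, adjusted p = 0.00080). Endotoxin alone thus had these transcripts far under PBS, and the HY209 arrays were lower still, whereas the PBS arrays were the lowest for Cxcl9 and Ccl3. The growth factor Igf1 (-0.55 ± 0.09), the phosphatidylserine receptor Axl (-0.59 ± 0.08) and the organic anion transporter Slco2b1 (-0.68 ± 0.10) fell in the same way. In the 7 defining macrophage markers, 4 of which fell, the summed intensity was 19903 to 20849 with HY209, against 26106 to 27949 with LPS and 143938 to 148766 with PBS, and no marker was at background on all arrays. Spic, the transcription factor of red pulp macrophages, and Adgre1, which encodes F4/80, were left in place at -0.10 ± 0.09 and -0.14 ± 0.11. In fits that left out 1 array, 7 to 11 of the 28 passed, with 7 without LPS array 1, and 9 passed without a filter on dim probes.

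Macrophages also make many complement components. Of 23 complement genes tested, 7 fell (30.4%, against 3.39% of all genes) and 1 rose (4.35%, against 6.02%). C6, a component of the membrane attack complex (probe ILMN_2798129), was at 295, 342 and 324 with HY209, against 616, 508 and 567 with LPS and 8133 and 7935 with PBS (-0.97 ± 0.10, adjusted p = 0.00034), while its other probe had -0.36 (adjusted p = 0.096 in limma over all probes). C1qa, a chain of the C1q recognition molecule, was at 1545, 1414 and 1708 with HY209, against 2397, 2561 and 2467 with LPS and 5809 and 5077 with PBS (-0.70 ± 0.10, adjusted p = 0.0015), and C2 changed by -0.69 ± 0.08. These 3 kept their calls in each fit that left out 1 array, whereas C1qb, C1qc, C4b and C8g (-0.39 to -0.35) did not, and 3 of the 7 passed without HY209 array 1 or LPS array 1. Clu, which encodes clusterin, an inhibitor of the attack complex, was at 856, 543 and 778 with HY209, against 404, 366 and 412 with LPS and 1514 and 1426 with PBS (0.98 ± 0.16, adjusted p = 0.0035).

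**Figure D4:**
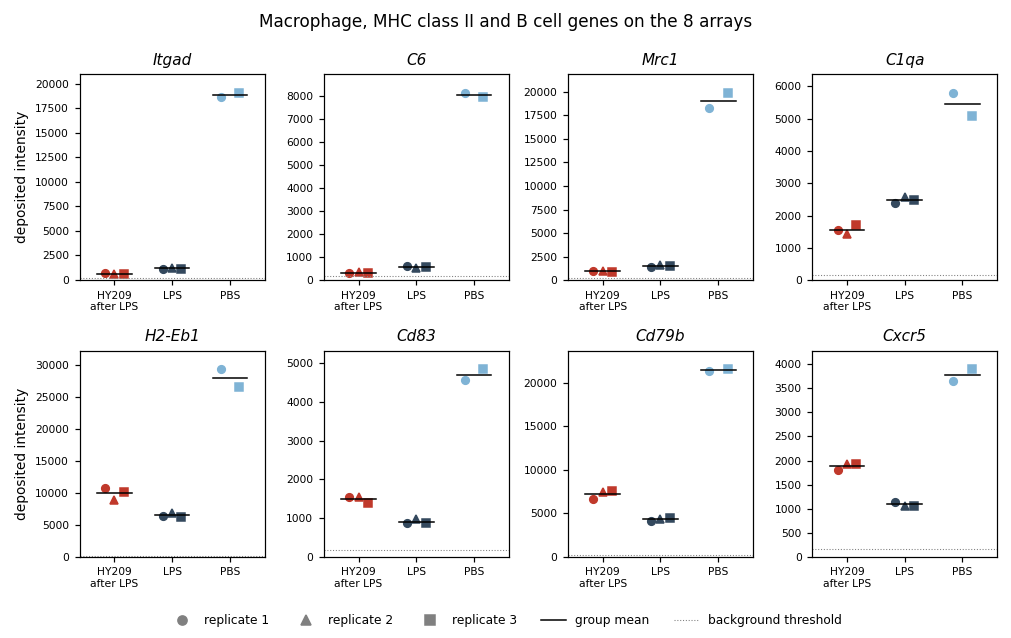
Deposited intensity of 4 macrophage and complement genes (Itgad, C6, Mrc1, C1qa), 2 antigen presentation genes (H2-Eb1, Cd83) and 2 B cell genes (Cd79b, Cxcr5) on each array, with a linear axis from 0, in the order HY209 after LPS, LPS and PBS. Symbols are replicates, black lines group means and the dotted line the background threshold. The HY209 arrays lie below the LPS arrays in the first 4 panels and above them in the other 4.

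Many of the largest rises were in genes of blood vessels and their basement membrane. Among the 19 genes at least 2-fold higher, 9 were on the endothelium list and 4 on the matrix list. One of the 9, Aqp1 (1.77 ± 0.13), was on the erythroid list as well and is counted in both. Of 42 tested endothelial genes, 21 rose (50%, against 6.02% of all genes), 1 fell and 18 were left in place. Plvap, a diaphragm protein of fenestrated vessels (probe ILMN_2984110), was at 1455, 596 and 1206 with HY209, against 312, 262 and 301 with LPS and 3329 and 3107 with PBS. It changed by 2.08 ± 0.27 (adjusted p = 0.0010), with HY209 array 2 well under the other HY209 arrays and still above every LPS array. Igfbp7, a secreted protein of vascular endothelium, was at 2991, 1415 and 2441 with HY209, against 648, 603 and 729 with LPS and 6440 and 6014 with PBS (1.84 ± 0.22, adjusted p = 0.00061). Egfl7, an endothelial matrix protein, was at 1002, 625 and 859 with HY209, against 415, 338 and 372 with LPS and 1829 and 1439 with PBS (1.28 ± 0.17, adjusted p = 0.0014), while its other probes had 0.79 and -0.00. The lipase anchor of capillaries Gpihbp1 was at 343, 289 and 343 with HY209, against 207, 159 and 167 with LPS and 501 and 454 with PBS (1.24 ± 0.15). The adhesion protein Esam changed by 1.12 ± 0.16, the guidance receptor Robo4 by 1.37 ± 0.14 and the receptor activity protein Ramp2 by 1.43 ± 0.15. Mmrn2 and the transcription factor Sox18 were not well above background on any LPS array and were at least 1.70-fold and 1.47-fold higher with HY209 on the background-corrected scale. The member that fell was the Notch receptor Notch4 (-0.45 ± 0.09).

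HY209 array 2 was the lowest of the 3 HY209 arrays for 18 of the 21 endothelial genes that rose, and array 1 the highest for 16. Without array 1, 13 of the 42 rose, without array 2, 20, and without array 3, 16, so rises passed whichever HY209 array was left out. The 9 defining endothelial markers summed to 2954 to 4360 with HY209, against 2150 to 2198 with LPS and 7400 to 7936 with PBS. Their abundant members were Plvap, Esam, Pecam1 and Robo4, and Kdr, Tie1 and Emcn stayed near the background threshold and were left in place. Pecam1, an adhesion molecule of endothelium and leukocytes, had a log2 difference of 0.28 ± 0.12 (adjusted p = 0.155).

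Matrix genes of the vessel wall are given next. Of 32 tested stromal and matrix genes, 13 rose (40.6%, against 6.02% of all genes), 2 fell (6.25%, against 3.39%) and 17 were left in place. Ccn2, a matricellular growth factor (probe ILMN_2909150), was at 1810, 1432 and 1552 with HY209, against 531, 471 and 493 with LPS and 1876 and 1675 with PBS (1.82 ± 0.11, adjusted p = 4.0e-06). The type IV collagen chain Col4a1 was at 1189, 1050 and 1094 with HY209, against 461, 472 and 396 with LPS and 928 and 867 with PBS (1.48 ± 0.10, adjusted p = 1.3e-05), so HY209 exceeded PBS as well as LPS. Its partner Col4a2 was at 692, 611 and 723 with HY209, against 377, 327 and 342 with LPS and 546 and 514 with PBS (1.11 ± 0.10, adjusted p = 0.00011), in the same order. Col18a1 (0.99 ± 0.15), the basement membrane linker Nid1 (0.80 ± 0.10), the proteoglycan Bgn (0.78 ± 0.11) and the chemokine Cxcl12 (0.71 ± 0.09) rose too. The fibroblast collagen Col1a1 was near background, at 169 to 181 with HY209, against 173 to 188 with LPS, and Pdgfra was at background on all 8 arrays. The 2 that fell, Col15a1 (-0.52 ± 0.11) and Col5a1 (-0.31 ± 0.08), lost their calls when arrays were left out, Col15a1 without LPS array 3 and Col5a1 in all 8 fits. Between 10 and 11 list members rose whichever array was left out, and 9 of the 13 passed in every such fit.

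Red cell and platelet transcripts mark other cells of the spleen. Of 32 erythroid genes tested, 14 rose (43.8%, against 6.02% of all genes) and 0 fell. Of 24 megakaryocyte and platelet genes, 12 rose (50%) and 1 fell (4.17%, against 3.39% of all genes). Slc4a1, the band 3 anion exchanger of red cells (probe ILMN_1227675), was at 5507, 3263 and 4636 with HY209, against 1215, 1055 and 1244 with LPS and 9055 and 8377 with PBS (1.97 ± 0.16, adjusted p = 6.5e-05). The alpha globin Hba-a1 was at 50687, 41448 and 44033 with HY209, against 26941, 26534 and 23801 with LPS and 64679 and 65787 with PBS (0.82 ± 0.10, adjusted p = 0.00059). Trim10 (1.34 ± 0.10) and the heme synthesis enzyme Alas2 (0.86 ± 0.16) also rose. The erythroid master regulator Klf1 was dim, at 220, 217 and 237 with HY209, against 165, 171 and 181 with LPS and 336 and 371 with PBS (0.59 ± 0.09). Defining erythroid markers summed to 46014 to 57923 with HY209, against 26058 to 29173 with LPS and 79764 to 81273 with PBS, with Epb42 at background on all arrays.

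Among platelet genes, Alox12 was at 640, 534 and 588 with HY209, against 336, 298 and 359 with LPS and 770 and 830 with PBS (0.98 ± 0.11, adjusted p = 0.00042). Treml1, a receptor stored in platelet granules, was at 412, 389 and 415 with HY209, against 257, 230 and 236 with LPS and 328 and 339 with PBS (0.97 ± 0.09, adjusted p = 0.00011), above PBS as well. Itga2b, the platelet fibrinogen receptor chain, was at 347, 332 and 322 with HY209, against 220, 218 and 208 with LPS and 316 and 320 with PBS (0.85 ± 0.08, adjusted p = 0.00016). The chemokine Ppbp rose by 0.90 ± 0.10. The one that fell was the ATP receptor P2rx1, which neutrophils also carry, at 344, 495 and 447 with HY209, against 640, 607 and 580 with LPS and 217 and 230 with PBS (-0.61 ± 0.14, adjusted p = 0.018, and 0.064 without LPS array 1). The 4 defining platelet markers summed to 1429 to 1508 with HY209, against 943 to 981 with LPS and 1474 to 1600 with PBS. With HY209 array 1 left out 11 erythroid and 8 platelet genes rose.

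**Figure D5:**
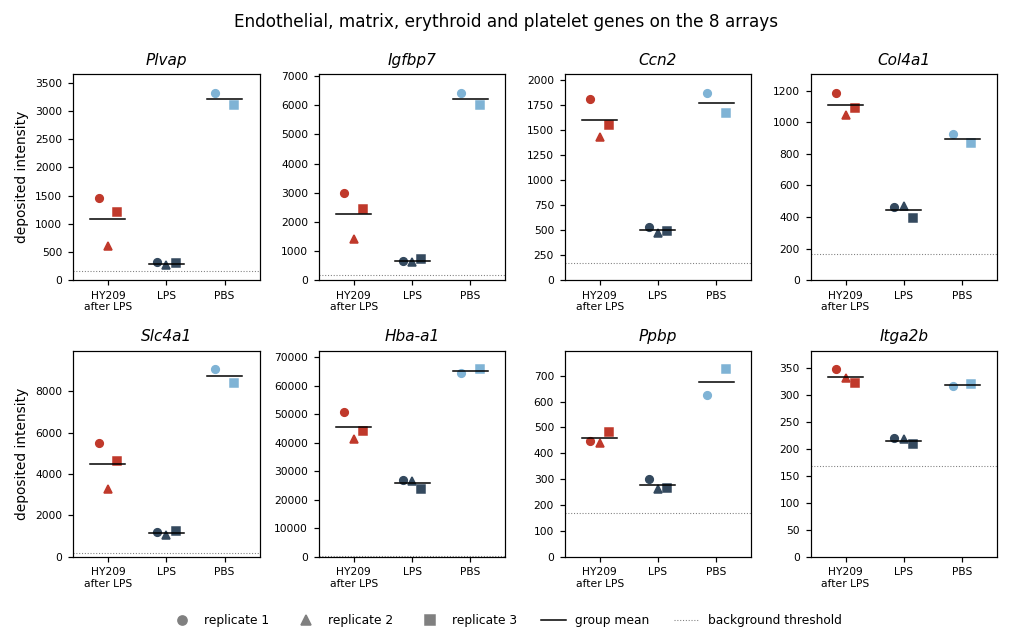
Deposited intensity of 2 endothelial (Plvap, Igfbp7), 2 matrix (Ccn2, Col4a1), 2 erythroid (Slc4a1, Hba-a1) and 2 platelet genes (Ppbp, Itga2b) on each array, with a linear axis from 0, in the order HY209 after LPS, LPS and PBS. Symbols are replicates, black lines group means and the dotted line the background threshold. Every HY209 array lies above every LPS array in all 8 panels, HY209 array 2 is the lowest of its group for Plvap, and Col4a1 is higher with HY209 than with PBS.

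Most of the tested B cell genes rose. Of 22 tested, 15 rose (68.2%, against 6.02% of all genes), 0 fell and 4 were left in place, with a median log2 change of 0.63. Cd79b, a signalling chain of the B cell receptor (probe ILMN_2610822), was at 6619, 7496 and 7612 with HY209, against 4075, 4363 and 4418 with LPS and 21380 and 21527 with PBS (0.76 ± 0.09, adjusted p = 0.00042). Cxcr5, the homing receptor for follicles, was at 1799, 1924 and 1923 with HY209, against 1148, 1062 and 1060 with LPS and 3648 and 3894 with PBS (0.83 ± 0.08, adjusted p = 0.00022). Pou2af1, a B cell transcriptional coactivator (0.91 ± 0.11), Ly6d (0.86 ± 0.13) and the BAFF receptor Tnfrsf13c (0.79 ± 0.09) rose to a like extent. Unlike the endothelial genes, these had no one lowest array, with HY209 arrays 1, 2 and 3 the lowest for 6, 5 and 4 of the 15. The B cell markers with a probe summed to 9288 to 11057 with HY209, against 5726 to 6545 with LPS and 28773 to 29542 with PBS. Between 13 and 16 members rose when any 1 array was left out.

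MHC class II genes, which B cells, dendritic cells and macrophages share, form the next list. Of 23 tested dendritic cell and MHC class II genes, 10 rose (43.5%, against 6.02% of all genes), 2 fell (8.70%, against 3.39%) and 9 were left in place. H2-Eb1 was at 10838, 8947 and 10075 with HY209, against 6425, 6778 and 6193 with LPS and 29338 and 26534 with PBS (0.62 ± 0.09, adjusted p = 0.0027). The maturation marker Cd83 was at 1536, 1546 and 1401 with HY209, against 870, 967 and 870 with LPS and 4573 and 4843 with PBS (0.77 ± 0.09, adjusted p = 0.00042), and the invariant chain Cd74 changed by 0.56 ± 0.09. H2-Ob, a peptide loading modulator typical of B cells, changed by 0.67 ± 0.11, and H2-Aa by 0.71 ± 0.14, with an adjusted p of 0.011 that reached 0.056 without HY209 array 1. Those that fell were the nuclease Dnase1l3, at 1514, 1756 and 2051 with HY209, against 3048, 3025 and 3191 with LPS and 2984 and 3055 with PBS (-0.84 ± 0.11, adjusted p = 0.0011), and the dendritic cell transcription factor Batf3 (-0.39 ± 0.10, lost in 4 of the 8 fits that left out 1 array). Class I genes did not follow, with 0 of 25 past the test in limma, 4 of them at an unadjusted p under 0.05, and 23 left in place (92.0%, against 82.0% of all genes).

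The T and NK cell list had 1 call each way (3.03% each, against 6.02% higher and 3.39% lower over all genes). Of 33 T and NK cell genes 1 rose, the transcription factor Ets1, which B cells also carry, at 6761, 7005 and 5439 with HY209, against 4290, 4538 and 3957 with LPS and 19825 and 22431 with PBS (0.59 ± 0.11). One fell, Ccl5, and 23 were left in place (69.7%, against 82.0% of all genes), although 8 rose once HY209 array 2 was left out. The T cell receptor chain Cd3e was at 2503, 2030 and 2311 with HY209, against 2227, 2121 and 2073 with LPS and 6010 and 6077 with PBS (0.09 ± 0.09). Of 13 plasma cell genes, Mzb1 (0.79 ± 0.11) and Irf4 (0.63 ± 0.09), both also carried by B cells, rose (15.4%, against 6.02% of all genes) and 11 were left in place (84.6%). Of 14 monocyte genes, 0 passed in limma, 3 of them at an unadjusted p under 0.05, and 10 were left in place (71.4%).

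Genes of DNA replication and cell division were tested as separate lists. Of 37 DNA replication genes tested, 22 rose (59.5%, against 6.02% of all genes), 0 fell and 15 were left in place by the interval, with a median log2 change of 0.39. Mcm5, a subunit of the replicative helicase (probe ILMN_2742849), was at 4493, 3344 and 4233 with HY209, against 2553, 2588 and 2636 with LPS and 3046 and 2787 with PBS (0.64 ± 0.11, adjusted p = 0.0056). Mcm6, of the same helicase, was at 1312, 1296 and 1152 with HY209, against 819, 923 and 796 with LPS and 990 and 1169 with PBS (0.61 ± 0.10, adjusted p = 0.0049). Uhrf1, which maintains DNA methylation, was at 2391, 1601 and 1622 with HY209, against 1083, 1180 and 997 with LPS and 1011 and 978 with PBS (0.80 ± 0.14, adjusted p = 0.0072), the highest of the 3 groups. Mcm3 rose by 0.59 ± 0.11. Without HY209 array 1, 13 of the 37 passed.

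The E2F factors switch on replication genes at the start of S phase, and the 250 bases upstream of Mcm5 and Mcm6 are shown because they hold an E2F element. Capitals mark TTTCCCGC or TTTGGCGC on either strand, in Mcm5 at chr8:75109259-75109508, plus strand, and in Mcm6 at chr1:128359706-128359955, minus strand.
Mcm5: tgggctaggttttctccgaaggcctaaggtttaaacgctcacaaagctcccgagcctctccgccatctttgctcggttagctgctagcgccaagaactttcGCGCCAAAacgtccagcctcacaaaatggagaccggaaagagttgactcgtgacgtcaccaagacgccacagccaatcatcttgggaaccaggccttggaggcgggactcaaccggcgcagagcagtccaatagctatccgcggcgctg
Mcm6: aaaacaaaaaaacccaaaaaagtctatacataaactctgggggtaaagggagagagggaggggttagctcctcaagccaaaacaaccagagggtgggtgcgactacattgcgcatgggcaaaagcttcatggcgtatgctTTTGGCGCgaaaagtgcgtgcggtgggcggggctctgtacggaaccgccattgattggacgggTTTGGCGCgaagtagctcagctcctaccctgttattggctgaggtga
The element begins at position -149 of Mcm5 and at -110 and -47 of Mcm6. It was held by 3 of 20 replication genes that rose and have a searched promoter and by 2 of 13 that did not rise, against 1.51% of the 27025 genes searched.

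Of 36 mitosis genes, 14 rose (38.9%, against 6.02% of all genes) and 1 fell (2.78%, against 3.39%). Top2a, the topoisomerase of dividing cells, was at 708, 690 and 562 with HY209, against 367, 410 and 386 with LPS and 427 and 549 with PBS (0.87 ± 0.13, adjusted p = 0.0024), and the survivin gene Birc5 at 831, 631 and 728 with HY209, against 480, 468 and 455 with LPS and 544 and 578 with PBS (0.72 ± 0.11). The spindle protein Prc1 changed by 0.75 ± 0.11 and the cell cycle phosphatase Cdc25a by 0.66 ± 0.13. The one that fell was Plk3, a stress-induced kinase, at 2637, 2623 and 2748 with HY209, against 3623, 3957 and 3638 with LPS and 869 and 797 with PBS (-0.50 ± 0.08, adjusted p = 0.0046). Of the 14, 6 passed without HY209 array 1. Myc was near the background threshold, at 187 to 214 with HY209 and 161 to 186 with LPS.

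Of 57 tested cytosolic ribosomal protein genes, 25 rose (43.9%, against 6.02% of all genes) and 0 fell, 54 of 57 changes were above 0, and the median was 0.26. Rps2 was at 33177, 27559 and 26870 with HY209, against 20300, 21154 and 17442 with LPS and 32510 and 31710 with PBS (0.57 ± 0.11, adjusted p = 0.0079). Rpl35 was at 32923, 31710 and 29467 with HY209, against 22431, 22881 and 22383 with LPS and 42757 and 42338 with PBS (0.47 ± 0.08, adjusted p = 0.0047). The brightest members, such as Rpl41 at 64679 to 65370 with HY209 and 62809 to 64351 with LPS, sat near the top of the scale, where a change could not show. Only 9 of the 25 passed without HY209 array 1, against 13 to 24 list members higher when another array was left out. Probes of this family can also bind transcripts of processed pseudogenes.

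Of 23 heat shock proteins and chaperones, 9 rose (39.1%, against 6.02% of all genes), 0 fell and 12 were left in place. The immunophilin Fkbp4 was at 2377, 1581 and 1831 with HY209, against 1220, 1189 and 1255 with LPS and 4489 and 3744 with PBS (0.67 ± 0.14, adjusted p = 0.012). The chaperonin subunits Tcp1 (0.63 ± 0.12) and Cct3 (0.58 ± 0.10) rose, and Hsph1 changed by 0.84 ± 0.19, with a call lost without HY209 array 1 or LPS array 2. Without HY209 array 1, 4 members passed. Of 23 genes of the unfolded protein response, 18 were left in place (78.3%, against 82.0% of all genes). One rose and 1 fell (4.35% each, against 6.02% and 3.39% of all genes). The disulfide isomerase Pdia4 rose (0.89 ± 0.15) and the stress factor Ddit3 fell, at 1355, 1494 and 1488 with HY209, against 1904, 1926 and 1905 with LPS and 924 and 982 with PBS (-0.42 ± 0.08, adjusted p = 0.0089).

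Of 66 respiratory chain genes, 65 (98.5%, against 82.0% of all genes) were left in place and 1 rose (1.52%, against 6.02% of all genes). This was Ndufa9 (0.28 ± 0.08, adjusted p = 0.0498), whose interval lay inside 0.5 too and whose call was lost in each of the 8 fits that left out 1 array. Of 27 glycolysis genes, 25 were left in place (92.6%) and 1 rose (3.70%, against 6.02% of all genes), Hk1 (0.31 ± 0.09, adjusted p = 0.0499, lost in 7 of those fits). Cholesterol synthesis and uptake had 0 rises and 1 fall among 23 (4.35%, against 3.39% of all genes), the exporter Abcg1 (-0.42 ± 0.09). Of 48 lysosomal genes, 42 were left in place (87.5%) and 2 fell (4.17%, against 3.39% of all genes). These were Neu1 and Atp6v1g1, lower by 0.32 and 0.33 on the log2 scale, neither in all of these fits.

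The share of neutrophil genes left in place was close to the 82.0% of all genes in 2 of the 3 lists. Of 25 genes of secondary and tertiary granules, 20 were left in place (80%) and 1 fell, Wfdc21, at 1156, 1072 and 1004 with HY209, against 1380, 1393 and 1406 with LPS and 343 and 329 with PBS (-0.40 ± 0.08, adjusted p = 0.013). Of 26 maturity and activation genes, 22 were left in place (84.6%) and 1 fell (3.85%), the lectin Clec4e (-0.36 ± 0.09), whose adjusted p reached 0.077 when an array was left out. Lcn2, which encodes lipocalin 2, was at 66399 on all 3 HY209 arrays, the highest value of the scale, and at 65787, 66399 and 65787 with LPS, so nothing can be read from it. Among 12 primary granule genes, which neutrophils transcribe only as early precursors, 3 rose (25%, against 6.02% of all genes), 0 fell and 5 were left in place (41.7%). Mpo, myeloperoxidase, was at 492, 459 and 505 with HY209, against 400, 367 and 372 with LPS and 277 and 276 with PBS (0.42 ± 0.08, adjusted p = 0.010), while Ctsg (0.47 ± 0.11) and Ms4a3 (0.38 ± 0.11) were dim and lost their calls in 3 and 7 of the 8 fits that left out 1 array. Mpo rested on 1 of 3 probes, the others having 0.13 and -0.03, and with the mean of probes neither Mpo (0.17, adjusted p = 0.168) nor Ms4a3 (0.15, adjusted p = 0.352) passed. The G-CSF receptor gene Csf3r was at 11523, 5684 and 7230 with HY209, against 7077, 7642 and 6778 with LPS, a spread between HY209 arrays larger than any difference from LPS.

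The receptors through which bile salts act gave little signal. Gpbar1, the gene of GPCR19 (probe ILMN_1248346), was at 142, 138 and 144 with HY209, against 130, 137 and 143 with LPS and 150 and 131 with PBS, below the background threshold on all 8 arrays. The nuclear bile acid receptor gene Nr1h4 was below it as well. Of 27 tested genes of bile acid receptors and the cyclic AMP response, 19 were left in place (70.4%, against 82.0% of all genes). One rose (3.70%, against 6.02% of all genes) and 2 fell (7.41%, against 3.39%). The one that rose was Akap12, a scaffold of protein kinase A, at 466, 447 and 435 with HY209, against 335, 307 and 276 with LPS and 634 and 691 with PBS (0.69 ± 0.10, adjusted p = 0.0023). Vdr, the vitamin D receptor, which also binds secondary bile acids, was at 467, 385 and 418 with HY209, against 553, 490 and 606 with LPS and 169 and 195 with PBS (-0.44 ± 0.12, adjusted p = 0.046), and Rgs2, a brake on G protein signalling, changed by -0.35 ± 0.10 (adjusted p = 0.046). Both lost their calls in 7 of the 8 fits that left out 1 array. S1pr2, a receptor for conjugated bile acids, was at 300, 310 and 332 with HY209, against 375, 370 and 356 with LPS and 268 and 267 with PBS (-0.28 ± 0.08, adjusted p = 0.0504, just over the threshold). It was called lower without background correction (adjusted p = 0.0440), with the mean of probes (0.0458), with probes above background on every array of a group (0.0356) and without HY209 array 3 (0.0462). The transcripts of the cyclic AMP response factors Creb1 and Crem were left in place at 0.04 ± 0.09 and 0.14 ± 0.11, and the activity of these factors was not measured.

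Among the remaining lists, members that moved were few or shared with the groups above. Over all genes, 6.02% rose, 3.39% fell and 82.0% were left in place. Of 18 stem and progenitor genes 5 rose (27.8%), 2 of them besides Egfl7 being Bcl11a, a transcription factor that B cells also carry, at 1531, 1373 and 1451 with HY209, against 912, 897 and 975 with LPS and 2067 and 2228 with PBS (0.69 ± 0.08), and Gata2 (0.66 ± 0.13). Of 14 eosinophil, basophil and mast cell genes, Gata2 rose and Ear6 fell (7.14% each). Ear6, an eosinophil ribonuclease gene, was at 507, 504 and 509 with HY209, against 743, 705 and 725 with LPS and 172 and 166 with PBS (-0.58 ± 0.08, adjusted p = 0.0013). Of 26 iron handling genes, 21 were left in place (80.8%), and 1 rose and 1 fell (3.85% each). The transferrin receptor Tfrc rose, at 1766, 1515 and 1609 with HY209, against 1046, 1125 and 1093 with LPS and 1359 and 1439 with PBS (0.61 ± 0.09, adjusted p = 0.0019). The haemoglobin scavenger receptor Cd163 fell (-0.51 ± 0.14, adjusted p = 0.045, lost in 6 of the 8 fits that left out 1 array). Of 31 oxidase and antioxidant genes, 4 rose (12.9%) and 1 fell (3.23%), among them the peroxiredoxin Prdx2, abundant in red cells (0.59 ± 0.11), and the thioredoxin Txn1 (-0.43 ± 0.11). Of 24 genes of the amino acid stress response 3 rose (12.5%), led by the serine synthesis enzyme Psat1 (0.50 ± 0.11), and Ddit3 fell (4.17%), but 0 of the 3 rises passed without HY209 array 1 or LPS array 3.

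Adhesion, survival and signalling lists follow. Of 29 adhesion and migration receptors, Esam and Cxcr5 rose and 2 fell (6.90% each way, against 6.02% and 3.39% of all genes). Those that fell were the macrophage adhesion molecule Vcam1, at 6499, 8268 and 6465 with HY209, against 9415, 10368 and 9066 with LPS and 50257 and 54315 with PBS (-0.45 ± 0.11, adjusted p = 0.023), and the chemokine receptor Cxcr4 (-0.37 ± 0.10, adjusted p = 0.046). Neither fall passed without LPS array 1 or LPS array 2. Of 34 Bcl2 family and apoptosis genes, 30 were left in place (88.2%, against 82.0% of all genes) and 1 rose (2.94%, against 6.02% of all genes), the pro-apoptotic Bok (0.61 ± 0.15, adjusted p = 0.031, lost in 5 of the 8 fits that left out 1 array). Of 37 JAK-STAT genes, 30 were left in place (81.1%, against 82.0% of all genes) and 2 fell (5.41%, against 3.39% of all genes). These were the STAT inhibitor Pias3 (-0.36 ± 0.09) and the cytokine signalling suppressor Cish (-0.29 ± 0.08), which lost their calls in 4 and 8 of those fits. Socs3 was at 13966, 11047 and 12500 with HY209, against 12838, 12818 and 13934 with LPS and 4139 and 3887 with PBS (-0.08 ± 0.10). Of 21 coagulation genes, 4 rose (19.0%, against 6.02% of all genes), and 0 of these passed without HY209 array 1 or LPS array 3. Among them was von Willebrand factor, Vwf, at 405, 395 and 398 with HY209, against 347, 327 and 318 with LPS and 917 and 990 with PBS (0.34 ± 0.08, adjusted p = 0.025).

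Some of the largest changes lay outside all lists. Sgip1, an endocytic adaptor (probe ILMN_2631934), was at 403, 558 and 468 with HY209, against 1126, 1199 and 1178 with LPS and 531 and 558 with PBS (-1.45 ± 0.12, adjusted p = 7.6e-05). The collagenase Mmp13 was at 482, 376 and 432 with HY209, against 906, 830 and 832 with LPS and 903 and 858 with PBS (-1.13 ± 0.11, adjusted p = 0.00016), so its HY209 arrays were lower than both other groups. This rested on 1 of its 3 probes, the other 2 having -0.06 (adjusted p = 0.81) and -0.24 (adjusted p = 0.14). The betaine transporter Slc6a12 was at 783, 872 and 944 with HY209, against 1585, 1347 and 1632 with LPS and 321 and 329 with PBS (-0.86 ± 0.10, adjusted p = 0.00066). Fcna, a ficolin of macrophages that activates the lectin pathway of complement, was at 4324, 3962 and 3945 with HY209, against 7348, 7479 and 7407 with LPS and 48397 and 48139 with PBS (-0.87 ± 0.08, adjusted p = 0.00011). Among the rises, the amino acid transporter Slc38a5 was at 338, 242 and 315 with HY209, against 149, 164 and 169 with LPS and 624 and 626 with PBS (1.29 ± 0.15), and the prostaglandin transporter Slco2a1 at 354, 273 and 305 with HY209, against 173, 168 and 190 with LPS and 457 and 458 with PBS (1.14 ± 0.12). Ccr6, a chemokine receptor of B cells and dendritic cells, was at 1170, 921 and 1005 with HY209, against 551, 581 and 571 with LPS and 2309 and 2225 with PBS (0.94 ± 0.10, adjusted p = 0.00034). Of the 971 genes that passed, 726 were on none of the 44 lists.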

How the data were processed

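RNA of Gr1+ spleen cells was measured on 8 Illumina MouseRef-8 v2 arrays. The authors deposited linear intensity values for 25697 probes, processed with GenomeStudio 2011.1 and R 2.15.0 per the submitters' processing notes. The deposited columns share one distribution (quantiles differ by at most 0.0616%) and were not background-subtracted. Values run from 108.9 to 66399 with a median of 169.7, and the number of arrays limits the precision. A further deposited table of 16 columns, not normalized, names samples in a way that matches no sample title and was not used.

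Here the intensity values were background-corrected (normexp, offset 50), quantile normalized and taken to log2 in limma 3.58.1 under R 4.3.3. Probes above 168 on at least 2 arrays were kept (14896), a threshold set from the background mode of 148, and 13139 probes (51.1%) lay above it on each array. The probe of highest mean stood for each gene. Of all probes, 23978 had 1 gene symbol, 1719 had none and 0 had several, and 23962 matched RefSeq. One model over all 8 arrays (5 residual degrees of freedom) gave the HY209 minus LPS difference, with Benjamini-Hochberg adjustment over 10311 genes at 0.05. No slide or scan batch is given in the labels. Where a gene was not well above background on any array of a group, the fold is a lower bound against the dimmest measurable level.

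Tested on simulated data for this comparison (10311 genes, 200 changed), the fit called 67% of genes changed by 0.5 on the log2 scale and 99% of those changed by 1.

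The members, the 44 lists and the tests were chosen with earlier results of these data known. Genes were picked by a rule: the 25 largest rises and 25 largest falls past the test with no overlap between groups, 4 members of each list of largest change past the test in each direction (or 2 of smallest adjusted p where none passed), and 20 genes in every case. Not all picked genes are described above, and those left out include some of the largest rises and falls. Other named members were chosen after their values were seen. Figures were drawn with matplotlib 3.10.9.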

Additional observations from a re-analysis of the deposited data

How the results depend on the processing

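Every call shared with the 971 kept its sign, but list medians close to 0 did not all keep theirs. Over the fits that left out 1 array, medians spanned -0.02 to 0.05 for ATF4 stress genes, -0.04 to 0.04 for glycolysis, -0.02 to 0.04 for cholesterol genes, -0.02 to 0.07 for stem and progenitor genes, -0.06 to 0.01 for the unfolded protein response and -0.00 to 0.12 for coagulation. Counts of called genes were 1176 without background correction, 971 with 75th percentile scaling, 1140 with probes above background on every array of a group, 715 with the 6 arrays of HY209 and LPS only, 921 with the mean of all probes, 1184 with a trended robust prior and 688 without a filter on dim probes. Without that filter, which raises the number of genes tested to 16593, 232 genes were lower and 14417 were left within 0.5. Leaving out 1 array gave 391 to 1117 called genes, 253 to 744 higher, 138 to 373 lower, 7716 to 8301 left in place and 23 to 36 changed at least 2-fold. The lowest counts came without HY209 array 1 (391), LPS array 1 (505) and LPS array 3 (524), and the cause was not tested. Without either PBS array the count was 715, as with 6 arrays, since a lone PBS array adds nothing to the spread. Of 143 called genes picked by the rule above, 39 lost the call without HY209 array 1 and 35 without LPS array 3, against 22 without the filter and 3 without background correction. With the replicate block 1195 genes were called, 959 of them among the 971. Same-numbered HY209 and LPS arrays deviated together with r of 0.0464, 0.293 and 0.27, against -0.35 to 0.117 for HY209 and LPS arrays of different numbers. The main fit did not take the numbers as pairs, and whether they mark a shared batch was not tested. Signal limits the dim genes, since 462 tested genes were not well above background on any HY209 array and 477 on any LPS array, and the brightest probes could not show a rise. The called genes picked by the rule had 48 other probes in 36 genes, of which 24 passed in the same direction, 20 had the same direction without passing, 4 had the opposite direction without passing and 0 passed in the opposite direction. With the mean of probes Clec4e, Hvcn1, Mpo, Ms4a3, Pias3 and Txn1 lost their calls.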
